A study of Mus musculus with 20 samples.

Results

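MHC class I antigen presentation was followed through 10 genes: H2-K1, H2-D1, B2m, Tap1, Tap2, Tapbp, Psmb8, Psmb9, Psmb10 and Nlrc5. They were matched by gene name among the non-control probes of the arrays, and all 10 were found among the 21424 genes tested. The material was total RNA of mouse proximal colon organoids, grown from crypts of male mice of around 40 days that were heterozygous for a Cre-activable BrafV600E allele. Selected organoids were BrafV600E organoids grown in base medium, which lacks the niche factors. BRAF organoids had received lentiviral Cre and were profiled 5 months after induction. EV organoids came from the same heterozygous background and had received the lentiviral backbone alone. Each type had 3 lines, numbered 1 to 3 in the labels, and of each line a culture kept for 48 h in base medium and one kept for 48 h in ENSW medium were arrayed. The labels describe a full culture medium with EGF and with conditioned media that supplied Noggin, R-spondin and Wnt3a. This gave 6 groups of 3 single-colour arrays, and wild-type organoids gave 1 array per medium, described apart. An organoid line is a bulk culture, so fewer cells of a type and less RNA per cell cannot be told apart in what follows.

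Class I molecules are held at the surface of nearly every nucleated cell as a heavy chain, a light chain (beta-2-microglobulin) and a short peptide that cytotoxic T cells read. The peptides are cut from cytosolic proteins by the proteasome, pumped into the endoplasmic reticulum by the TAP transporter and loaded onto the heavy chain with the help of tapasin. Interferon gamma and other inflammatory signals raise the whole set in epithelium, and in the gut epithelium the level of the pathway is known to vary with differentiation and with inflammation.

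The upstream sequences show what the heavy chain genes and B2m have in common before their levels are compared. The windows come from RefSeq (GRCm38.p6), in which 8 of the 10 genes matched an entry, all but Tap2 and Nlrc5. Each window holds the 250 bases before the gene start, and capitals mark matches to 6 motifs searched on both strands. These were an NF-kB-like site (GGGG and CCCC with 3 bases between), the interferon-stimulated response element (GAAA and GAAA with 2 bases between), its shorter form (GAA and GAAA with 2 bases between), the CRE-like core TGACG, the CCAAT box and the GAS motif (TTC and GAA with 3 bases between). Both interferon forms can overlap each other.
H2-K1, chr17:34000334-34000583, minus strand: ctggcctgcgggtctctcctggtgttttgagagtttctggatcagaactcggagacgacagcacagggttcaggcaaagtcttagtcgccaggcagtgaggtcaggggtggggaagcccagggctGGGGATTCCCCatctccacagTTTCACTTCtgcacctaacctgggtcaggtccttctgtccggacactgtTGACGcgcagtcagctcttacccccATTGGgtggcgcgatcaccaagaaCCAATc
H2-D1, chr17:35262844-35263093, plus strand: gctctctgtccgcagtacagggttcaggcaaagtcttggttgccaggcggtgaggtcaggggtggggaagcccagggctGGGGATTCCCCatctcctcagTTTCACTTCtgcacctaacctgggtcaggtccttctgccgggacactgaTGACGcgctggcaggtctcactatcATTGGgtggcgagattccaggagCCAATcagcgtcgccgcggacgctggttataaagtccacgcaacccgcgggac
B2m, chr2:122147437-122147686, plus strand: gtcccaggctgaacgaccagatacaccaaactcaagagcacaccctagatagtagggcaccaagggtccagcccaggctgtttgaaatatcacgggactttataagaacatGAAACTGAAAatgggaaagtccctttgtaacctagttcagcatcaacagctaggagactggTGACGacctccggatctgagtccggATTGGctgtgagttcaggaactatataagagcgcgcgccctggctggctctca
H2-K1 and H2-D1 shared 167 of 190 aligned bases (87.9%), including GGGGATTCCCC, the shorter interferon element as TTTCACTTC, and TGACG. B2m held the longer interferon element as GAAACTGAAA, with TGACG and a CCAAT box nearer to its start. Among 32536 promoter windows of that length, 0.882% held the NF-kB-like site, 2.98% held the longer and 6.35% the shorter interferon element, 17.9% held TGACG, 33.8% held a CCAAT box and 7.04% held a GAS motif. Psmb9 and Tap1 lie head to head, so 1 stretch of 225 bases between their starts serves both and is printed from the Psmb9 side to the Tap1 side.
Psmb9 and Tap1, chr17:34187331-34187555, plus strand: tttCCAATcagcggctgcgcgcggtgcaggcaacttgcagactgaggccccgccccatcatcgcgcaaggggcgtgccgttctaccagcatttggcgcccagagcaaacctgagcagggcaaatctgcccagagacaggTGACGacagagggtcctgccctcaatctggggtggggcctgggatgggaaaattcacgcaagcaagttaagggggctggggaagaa
It held TGACG and a CCAAT box and no match to the NF-kB or interferon motifs in these letters. Psmb8 held 1 GAS match (TTCCCAGAA). Tapbp held CCAAT boxes alone, and Psmb10 held no match to the 6 motifs. RefSeq also gives H2-K1 a start at 34000347, whose window lacks the CCAAT match at the end of the printed one. These matches are letters in a window and no measurement of binding.

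Levels are log2 intensities of the array's processed signal relative to the 75th percentile of the same array. One probe stands for each gene, and levels of different genes are not compared with each other, since probes differ in brightness. All probes lie where the files place them on mm9: on chromosome 17 for H2-K1 (34133055 to 34133114, minus strand), H2-D1 (35403886 to 35403945), Tap1 (34330854 to 34330913), Tap2 (34353116 to 34353175), Tapbp (34065963 to 34066022), Psmb8 (34337771 to 34337830) and Psmb9 (34319174 to 34319233), on chromosome 2 for B2m (121978401 to 121978460), and on chromosome 8 for Psmb10 (108459677 to 108459736) and Nlrc5 (97030478 to 97030624). Exon and UTR positions of the probes were not analysed here. Of the 10 probes, 8 were well above background on all 18 arrays, Nlrc5 on 12 and Psmb8 on 10. Between 59.6% and 65.2% of the spots of an array were well above background. EV arrays shared no slide with BRAF or Selected arrays, so in comparisons with EV the organoid type cannot be told apart from the slide, whereas both media of a culture always lay on 1 slide. H2-K1 and Tap1 were each printed at 10 spots per array. The SD between spots of 1 array had a median of 0.031 for H2-K1 and 0.081 for Tap1, against SDs between the lines of a group of 0.10 to 0.66 and 0.42 to 0.94. The spread between lines is therefore what the tests weigh, and 3 arrays per group limit the precision.

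In base medium, most of the pathway was lower in Selected organoids than in EV organoids: 8 of the 10 genes fell, all but Tap1 and Nlrc5, where 23.2% of all genes tested fell. In BRAF organoids 5 fell (H2-K1, H2-D1, Tapbp, Psmb8 and Psmb10), where 13.2% of all genes fell. In ENSW medium Psmb10 alone fell, both in Selected organoids (5.12% of all genes) and in BRAF organoids (1.41%). No gene of the 10 rose in these comparisons. In base medium 7 of the 10 genes in Selected organoids (26.6% of all genes) and 5 in BRAF organoids (19% of all genes) had every array below every EV array, and in ENSW medium this held for 2 and 5 of them (15.8% and 13.5% of all genes). The median log2 difference of the 10 genes from EV in base medium was -2.28 in Selected and -1.37 in BRAF organoids, against 0.02 and 0.03 over all genes, and in ENSW medium it was -0.54 and -0.57, against 0.11 and 0.07. Selected and BRAF organoids were both set against the same EV arrays, so the comparisons are not independent of each other.

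**Figure D1:**
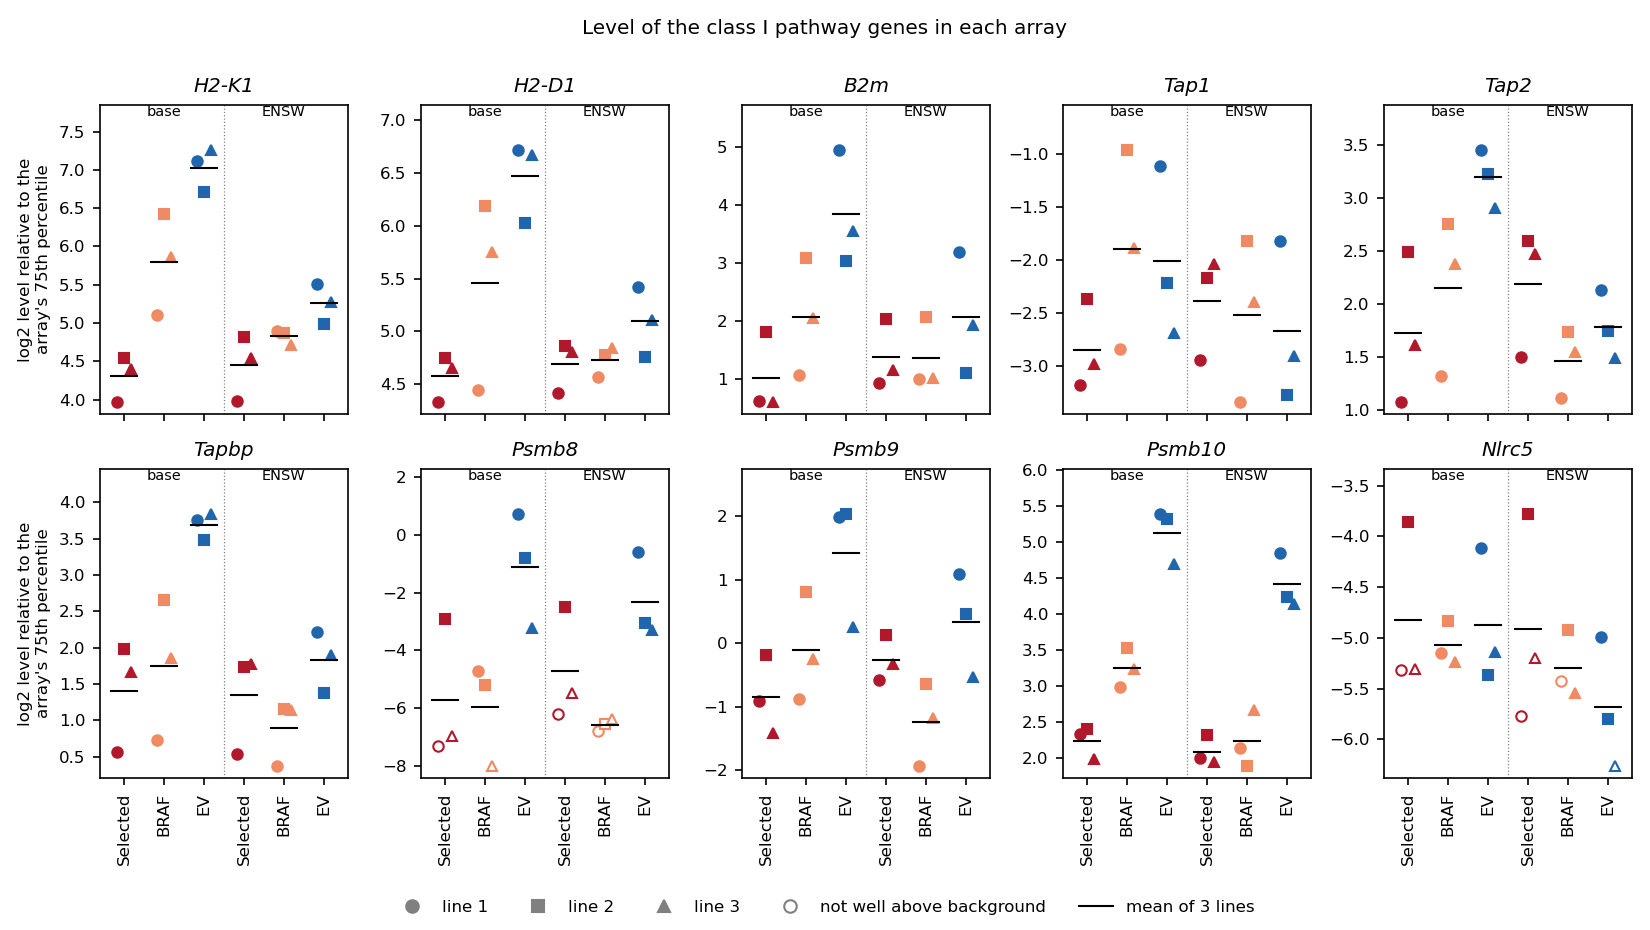
Log2 level of each gene relative to the 75th percentile of its array (vertical axis, own range per gene) in Selected, BRAF and EV organoids, base medium left and ENSW medium right of the dotted line. Symbols are lines, open symbols are arrays on which the probe was not well above background, and bars are means of 3 lines. For H2-K1 the 3 Selected arrays in base medium lie between 3.97 and 4.55 and the 3 EV arrays between 6.70 and 7.25.

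The classical heavy chains, which bind the peptide, were H2-K1 and H2-D1. In base medium H2-K1 had levels of 3.97, 4.55 and 4.40 in Selected lines 1 to 3, of 5.11, 6.43 and 5.87 in BRAF lines, and of 7.11, 6.70 and 7.25 in EV lines. The 3 types did not overlap, with Selected lowest and EV highest. H2-K1 fell by 2.72 ± 0.30 (SE, n = 3 each, adjusted p = 8.14e-06) in Selected against EV organoids, which is 6.57-fold lower, and by 1.22 ± 0.30 (2.33-fold lower, adjusted p = 0.00779) in BRAF against EV organoids. In ENSW medium its levels were 3.98, 4.82 and 4.54 in Selected lines, 4.90, 4.87 and 4.71 in BRAF lines and 5.51, 4.99 and 5.28 in EV lines. Both mutant types still lay below all EV arrays there, by 0.81 ± 0.30 (adjusted p = 0.0878) and 0.43 ± 0.30 (adjusted p = 0.438), and neither difference passed the test.

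H2-D1 had levels of 4.33, 4.75 and 4.65 in Selected lines, 4.45, 6.19 and 5.76 in BRAF lines and 6.71, 6.03 and 6.67 in EV lines in base medium. Selected lines lay below all EV lines, whereas BRAF line 2 lay above EV line 2. H2-D1 fell by 1.89 ± 0.35 (3.72-fold, adjusted p = 0.000472) in Selected organoids and by 1.01 ± 0.35 (adjusted p = 0.0411) in BRAF organoids. The BRAF difference passed the test in 14 of 27 fits that left out 1 array or 1 culture, was -0.50 without the base array of BRAF line 1 (adjusted p = 0.174), and missed it without a filter on dim probes (0.0577). In ENSW medium the levels were 4.41, 4.86 and 4.80 in Selected lines, 4.57, 4.78 and 4.84 in BRAF lines and 5.42, 4.75 and 5.11 in EV lines, and the types overlapped. H2-D1 and H2-K1 had a Pearson r of 0.961 over the 18 arrays, the highest of the 45 pairs among the 10 genes, over arrays that share cultures and slides. Class I heavy chain genes are near copies of each other, and how far a probe of one binds transcripts of another was not tested.

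B2m encodes the light chain that all class I heavy chains need to reach the surface. In base medium it had levels of 0.61, 1.81 and 0.60 in Selected lines, 1.07, 3.08 and 2.06 in BRAF lines and 4.95, 3.04 and 3.56 in EV lines. All Selected lines lay below all EV lines, and B2m fell by 2.84 ± 0.65 (7.17-fold, adjusted p = 0.00230). BRAF line 2 lay just above EV line 2, and the difference between BRAF and EV organoids, -1.78 ± 0.65 (adjusted p = 0.0504), did not pass the test, although it did under 5 of 9 other ways of processing the arrays (0.0248 with the culture as a random block) and without BRAF line 2 (-2.28, 0.0272). In ENSW medium B2m had levels of 0.92, 2.04 and 1.14 in Selected lines, 1.00, 2.07 and 1.02 in BRAF lines and 3.19, 1.09 and 1.92 in EV lines. There EV line 1 lay above the other 8 arrays and EV line 2 lay among the mutant arrays.

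Tap1 and Tap2 are the subunits of the transporter that moves peptides into the endoplasmic reticulum, and they differed from each other in how they varied. Tap2 fell by 1.47 ± 0.41 (2.77-fold, adjusted p = 0.00894) in Selected against EV organoids in base medium, with levels of 1.07, 2.49 and 1.61 in Selected lines, 1.32, 2.75 and 2.37 in BRAF lines and 3.44, 3.23 and 2.90 in EV lines. Every Selected and BRAF line lay below every EV line. The BRAF difference was -1.05 ± 0.41 (adjusted p = 0.0684) and passed the test with the line as a block (0.0367), with the culture as a random block (0.0453) and with another background correction (0.0474). Tap1 had levels of -3.18, -2.37 and -2.98 in Selected lines, -2.84, -0.97 and -1.88 in BRAF lines and -1.12, -2.21 and -2.69 in EV lines in base medium. The types overlapped, with BRAF line 2 highest and Selected line 1 lowest. The Tap1 differences from EV in base medium were -0.84 ± 0.55 in Selected organoids (adjusted p = 0.228) and 0.11 ± 0.55 in BRAF organoids (adjusted p = 0.901). In ENSW medium the Tap1 and Tap2 differences from EV lay between -0.32 and 0.40 in both types, and the types overlapped.

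Tapbp encodes tapasin, which holds the empty heavy chain at the transporter while peptide is loaded. In base medium it had levels of 0.56, 1.98 and 1.66 in Selected lines, 0.72, 2.65 and 1.86 in BRAF lines and 3.76, 3.48 and 3.84 in EV lines. All mutant lines lay below all EV lines, by 2.29 ± 0.49 (4.89-fold, adjusted p = 0.00139) in Selected organoids and by 1.94 ± 0.49 (3.85-fold, adjusted p = 0.00847) in BRAF organoids. Both calls held in all 27 fits that left out 1 array or 1 culture. In ENSW medium the Tapbp levels were 0.53, 1.74 and 1.78 in Selected lines, 0.38, 1.15 and 1.14 in BRAF lines and 2.22, 1.38 and 1.90 in EV lines, with differences of -0.48 ± 0.49 (adjusted p = 0.545) and -0.94 ± 0.49 (adjusted p = 0.276) from EV. Line 1 was lowest of the 3 lines for Tapbp in both mutant types and both media.

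Psmb8, Psmb9 and Psmb10 are the catalytic subunits of the immunoproteasome, which replace the standard subunits Psmb5, Psmb6 and Psmb7 and shift cutting towards peptides that class I binds well. Psmb10 was the gene of the 10 that fell in both mutant types in both media. In base medium its levels were 2.32, 2.40 and 1.98 in Selected lines, 2.98, 3.53 and 3.23 in BRAF lines and 5.38, 5.32 and 4.69 in EV lines, with no overlap between any of the 3 types. In ENSW medium they were 1.99, 2.32 and 1.94 in Selected lines, 2.13, 1.89 and 2.66 in BRAF lines and 4.85, 4.24 and 4.14 in EV lines. Here the mutant types overlapped each other and lay below all EV lines. Psmb10 was lower than in EV organoids by 2.90 ± 0.26 (7.45-fold, adjusted p = 1.76e-06) in Selected and by 1.88 ± 0.26 (3.68-fold, adjusted p = 0.000204) in BRAF organoids in base medium. In ENSW medium it was lower by 2.33 ± 0.26 (5.02-fold, adjusted p = 0.000109) and 2.18 ± 0.26 (4.54-fold, adjusted p = 0.000620). These 4 calls held under every alternative run, and within each line number the difference lay between -3.06 and -1.45.

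Psmb9 had levels of -0.92, -0.19 and -1.42 in Selected lines, -0.88, 0.81 and -0.25 in BRAF lines and 1.98, 2.03 and 0.25 in EV lines in base medium. EV line 3 was the lowest EV line and lay above the Selected lines but below BRAF line 2. Psmb9 fell by 2.26 ± 0.57 (4.79-fold, adjusted p = 0.00464) in Selected organoids. The BRAF difference was -1.52 ± 0.57 in base medium (adjusted p = 0.0570) and -1.58 ± 0.57 in ENSW medium (adjusted p = 0.115), and with the line as a block both passed the test (0.0215 and 0.0492).

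Psmb8 lay near the detection limit outside EV organoids. In base medium its levels were -7.31, -2.92 and -6.98 in Selected lines, -4.72, -5.19 and -8.00 in BRAF lines and 0.72, -0.78 and -3.24 in EV lines. The probe was well above background on 1 of 3 Selected arrays (line 2), 2 of 3 BRAF arrays (lines 1 and 2) and 3 of 3 EV arrays. Selected line 2 lay above EV line 3, whereas all BRAF lines lay below all EV lines. The fitted differences from EV, -4.64 ± 1.35 in Selected (adjusted p = 0.0112) and -4.87 ± 1.35 in BRAF organoids (adjusted p = 0.0147), passed the test and had the widest SE of the 10 genes. They take in arrays on which the probe was not well above background, where the level is only a bound, so their size is uncertain. With normexp background correction the differences shrank to as little as -1.80 and -1.89. Without the base array of EV line 1 they were -3.73 (adjusted p = 0.0561) and -3.96 (0.0665), so both calls were lost. The Selected call was also lost without Selected line 1 or line 3, and the BRAF call without BRAF line 3. In ENSW medium 0 of 3 BRAF arrays and 3 of 3 EV arrays had the Psmb8 probe well above background, with group means of -6.58 and -2.31. Psmb8 was there at least 9.18-fold lower in BRAF organoids, a bound taken from the lowest signal well above background on each array, with an adjusted p of 0.0757 (0.0425 with the line as a block).

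Nlrc5 encodes the transactivator that drives class I heavy chain, B2m, Tap1 and Psmb9 promoters. Its levels were the least like those of the other genes, with r = 0.366 against the mean of the other 9 over 18 arrays, where B2m had 0.934, Psmb9 0.904 and Tapbp 0.901. In base medium Nlrc5 had levels of -5.32, -3.86 and -5.30 in Selected lines, -5.15, -4.83 and -5.23 in BRAF lines and -4.12, -5.37 and -5.14 in EV lines. The types overlapped, Selected line 2 was highest, and the probe was well above background on 1, 3 and 3 arrays of the 3 types. The differences from EV were 0.05 ± 0.52 in Selected (adjusted p = 0.951) and -0.20 ± 0.52 in BRAF organoids (adjusted p = 0.805). A dimmer second Nlrc5 probe, well above background on 6 of 18 arrays, gave -0.38 ± 1.62 and -0.57 ± 1.62.

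**Figure D2:**
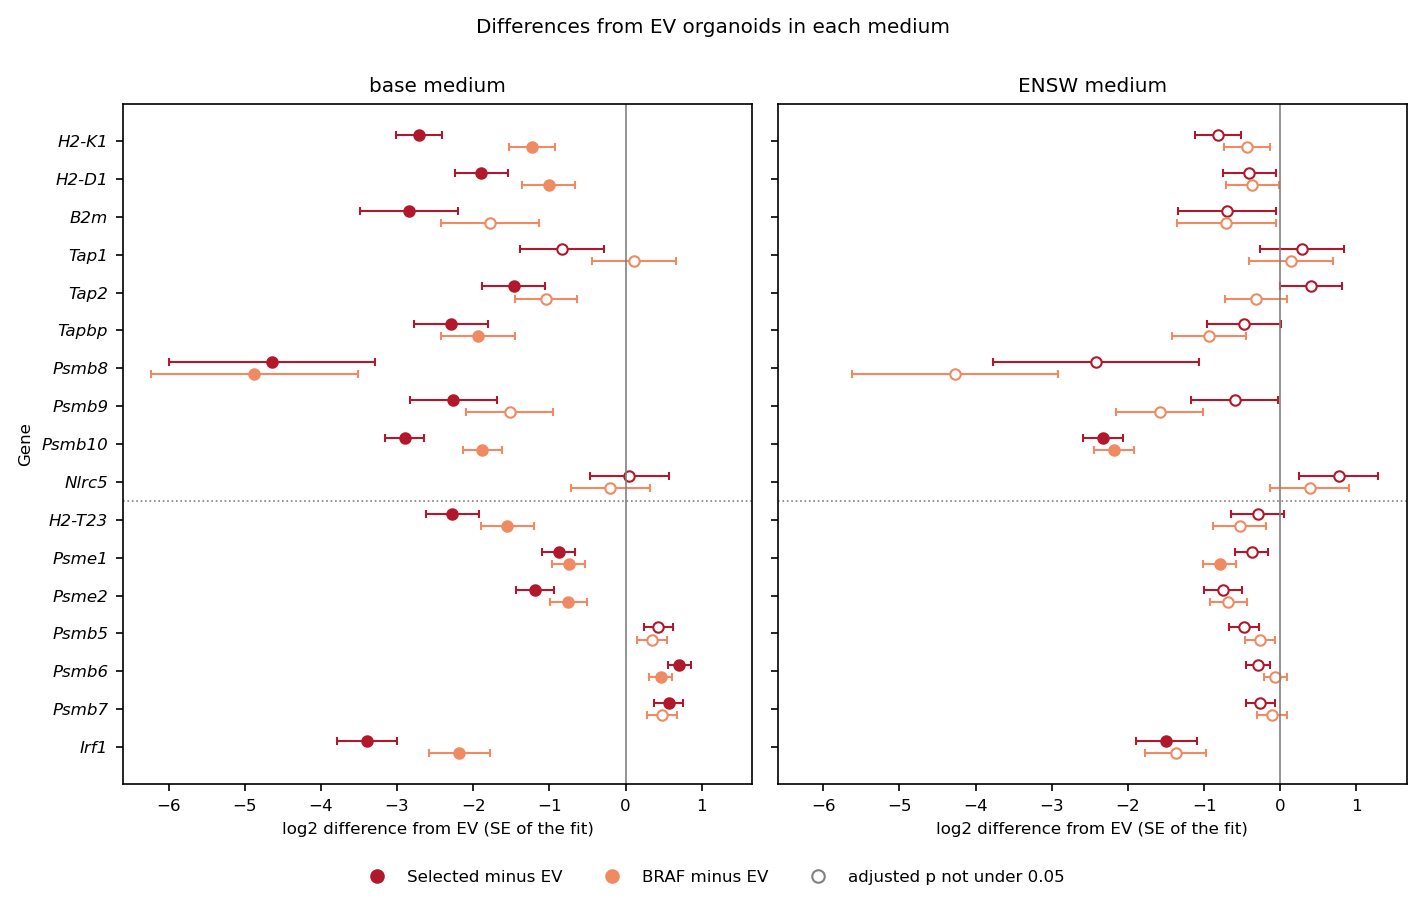
Log2 differences from EV organoids for Selected and BRAF organoids (points, with the SE of the fit as bars) in base medium, left, and ENSW medium, right. Open points did not pass the test at an adjusted p of 0.05, and genes below the dotted line are others of the pathway. Psmb10 lies between -2.90 and -1.88 in both media, whereas H2-K1 in Selected organoids lies at -2.72 in base and at -0.81 in ENSW medium.

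Selected organoids were compared with BRAF organoids directly in the same medium. In base medium H2-K1 fell by 1.49 ± 0.30 (2.81-fold, adjusted p = 0.00789) and Psmb10 by 1.02 ± 0.26 (2.02-fold, adjusted p = 0.0244) in Selected organoids, where 5.14% of all genes fell. The other 8 genes had differences between -1.06 and 0.25 and did not pass the test, and the median of the 10 was -0.81, against -0.03 over all genes. Slide 4 held the only cultures of both types, and there Selected line 3 minus BRAF line 1 was -0.70 for H2-K1 and -1.01 for Psmb10. In this 1 pair of cultures H2-D1 (0.21), Tap2 (0.29) and Tapbp (0.94) were higher in the Selected line, and the rest of the 10 genes were lower. With slide as a fixed block the differences were -1.09 (adjusted p = 0.172) for H2-K1 and -1.04 (adjusted p = 0.0819) for Psmb10, and neither passed the test. Without BRAF line 2 the differences were -1.18 (0.0508) for H2-K1 and -0.88 (0.102) for Psmb10, and the Psmb10 call was also lost without the base array of Selected line 1 or 3 or of BRAF line 3. In ENSW medium 0 of the 10 genes passed the test, where 0.607% of all genes did, at an unadjusted p under 0.05 for 2279 of 21424 genes. The differences there lay between -0.38 and 0.98, apart from Psmb8 (adjusted p = 0.708). The Psmb8 probe was well above background in Selected line 2 alone, so the size of its difference is not given.

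Values per line are base minus ENSW within each culture, which is also within each slide. The main test compared the group means without a culture block, so its SEs and calls do not use that pairing. Results with the culture as a random block follow below. In EV organoids 6 of the 10 genes rose in base medium, where 23.5% of all genes did: H2-K1 by 1.76 ± 0.30 (3.40-fold, adjusted p = 0.000368), Tapbp by 1.86 ± 0.49 (adjusted p = 0.00705), B2m by 1.78 ± 0.65 (adjusted p = 0.0391), Tap2 by 1.41 ± 0.41 (adjusted p = 0.0135), H2-D1 by 1.38 ± 0.35 (adjusted p = 0.00589) and Psmb10 by 0.72 ± 0.26 (adjusted p = 0.0368). All 10 genes were higher in base medium in each of the 3 EV lines, as were 45.2% of all genes. In BRAF organoids 8 of the 10 genes were higher in base medium in each line, as were 27.8% of all genes, and 0 passed the test, where 1.65% of all genes did. In Selected organoids 1 gene (Psmb10) was higher and 7 were lower in base medium in each line, shares that were 19.7% and 18.4% over all genes, and 0 passed the test, where 0.00467% of all genes did (1 gene, with 319 at an unadjusted p under 0.05).

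The responses differed in size between genes and lines. H2-K1 differed between media by -0.01, -0.28 and -0.14 in Selected lines, by 0.21, 1.56 and 1.16 in BRAF lines and by 1.60, 1.72 and 1.98 in EV lines. The Selected lines lay near 0, BRAF line 1 lay near them, and BRAF lines 2 and 3 lay near or below the EV lines. B2m differed by -0.32, -0.23 and -0.54 in Selected lines, by 0.08, 1.01 and 1.04 in BRAF lines and by 1.75, 1.95 and 1.64 in EV lines, the same order. The median over the 10 genes was -0.16, -0.15 and -0.34 in the Selected lines, 0.31, 1.39 and 0.77 in the BRAF lines and 1.31, 1.53 and 1.27 in the EV lines. That order was not shared by all 10 genes, with Tap1, Psmb9 and Psmb10 among the exceptions. Tap1 differed by 0.49, 0.86 and 0.51 in BRAF lines and by 0.70, 1.05 and 0.22 in EV lines. Psmb9 differed by 1.06, 1.45 and 0.93 in BRAF lines and by 0.90, 1.57 and 0.79 in EV lines, and Psmb10 by 0.85, 1.64 and 0.57 in BRAF lines and by 0.54, 1.08 and 0.54 in EV lines. The spread between cultures is removed by treating the culture as a random block, and then H2-K1 (adjusted p = 0.00899), Psmb9 (0.0325) and Psmb10 (0.00376) passed the test in BRAF organoids, where 9.95% of all genes rose. In EV organoids Psmb9 (1.09, 0.0135) and Nlrc5 (0.81, 0.0331) then passed as well, which made 8 of 10, where 34.8% of all genes rose. Leaving out both arrays of EV line 3 left 1 of the 6 EV calls, H2-K1 (0.00898). B2m also lost its EV call without the base array of EV line 1 (1.23, 0.170) and with the authors' log2 values (0.0532), and Psmb10 without both arrays of EV line 2 (0.54, 0.226).

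**Figure D3:**
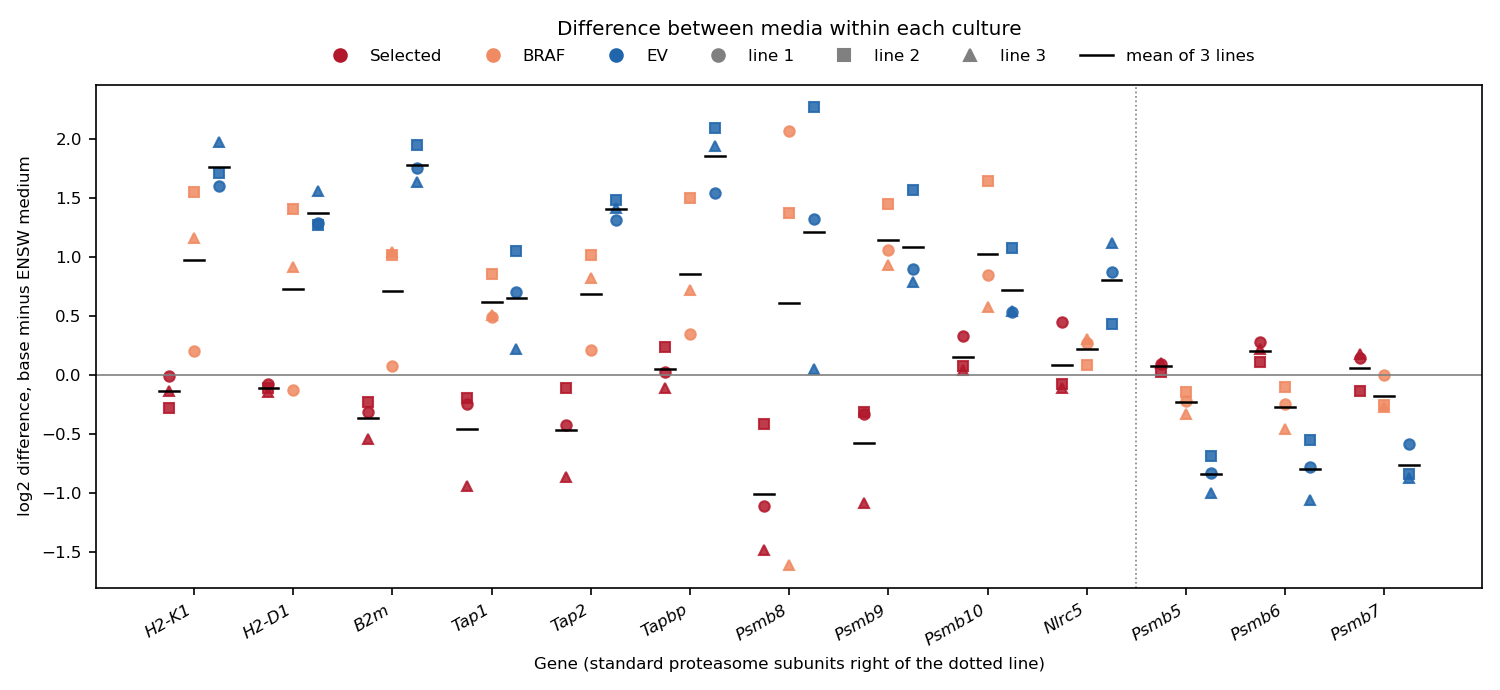
Log2 difference between base and ENSW medium in each culture (vertical axis) for the 10 genes and, right of the dotted line, the standard proteasome subunits. Symbols are lines, colours are organoid types and bars are means of 3 lines. H2-K1 lies between 1.60 and 1.98 in EV lines and between -0.28 and -0.01 in Selected lines, and Psmb6 lies between -1.06 and -0.55 in EV lines.

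The test of the difference between the responses passed for 3 genes in Selected minus EV organoids, where 10.5% of all genes passed it in that direction: H2-K1 (-1.90 ± 0.43, adjusted p = 0.00542), Tap2 (-1.87 ± 0.58, adjusted p = 0.0312) and H2-D1 (-1.49 ± 0.49, adjusted p = 0.0414). All 10 genes had a negative value, with a median of -1.74 against -0.19 over all genes. With the culture as a random block 6 passed, where 24% of all genes passed in that direction, B2m (-2.14, adjusted p = 0.00495), Tapbp (-1.81, 0.00333) and Psmb9 (-1.66, 0.0124) among them, and Tapbp also passed with the line as a block (0.0369). The H2-K1 result held in all 27 fits that left out 1 array or 1 culture (adjusted p up to 0.0344), Tap2 in 16 and H2-D1 in 8. In BRAF minus EV organoids 0 genes passed, where 3.35% of all genes did either way (4187 at an unadjusted p under 0.05), with values from -1.07 to 0.30. In Selected minus BRAF organoids 0 passed, as for all genes (0%, with 1797 at an unadjusted p under 0.05).

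The standard catalytic subunits fell in base medium in EV organoids, where Psmb10 rose and the Psmb8 and Psmb9 differences did not pass the test. In that comparison 4016 of 21424 genes fell. Psmb5 fell by 0.84 ± 0.20 (adjusted p = 0.00341), Psmb6 by 0.80 ± 0.15 (adjusted p = 0.000881) and Psmb7 by 0.77 ± 0.19 (adjusted p = 0.00579) in base against ENSW medium in EV organoids. All 3 were lower in base medium in each EV line. In Selected against EV organoids in base medium Psmb6 rose by 0.71 ± 0.15 (adjusted p = 0.00160) and Psmb7 by 0.57 ± 0.19 (adjusted p = 0.0262), while the activators of the immunoproteasome, Psme1 and Psme2, fell by 0.88 ± 0.22 (adjusted p = 0.00398) and 1.19 ± 0.25 (adjusted p = 0.00114). In BRAF organoids in base medium Psmb6 rose by 0.46 ± 0.15 (adjusted p = 0.0340) and Psme1 and Psme2 fell by 0.75 ± 0.22 (adjusted p = 0.0180) and 0.75 ± 0.25 (adjusted p = 0.0325). Of the 6 genes on the proteasome list, Psme3 included, there were 3 rises and 2 falls in Selected and 1 rise and 2 falls in BRAF organoids in base medium. Over all genes 25% rose and 23.2% fell in Selected organoids, and 17.8% rose and 13.2% fell in BRAF organoids. The 1 rise in BRAF organoids is close to the share over all genes.

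Of 16 non-classical and class I-like genes 13 could be tested. In base medium 11 of them fell in Selected organoids (23.2% of all genes) and 10 in BRAF organoids (13.2%) against EV, with 0 rises and medians of -2.27 and -1.38. The exceptions in both types were H2-T24, with differences of -0.23 in Selected and -0.40 in BRAF organoids, and H2-M3, which was higher in both by 0.64 and 0.80 without passing the test. In ENSW medium 1 rose (H2-M3, by 0.98 ± 0.31, adjusted p = 0.0472, where 8.68% of all genes rose) and 1 fell in Selected organoids, and 0 passed in BRAF organoids. H2-T23, which encodes Qa-1 and presents a narrow set of peptides, had a mean level of 4.88 ± 0.32 in Selected, 5.60 ± 0.74 in BRAF and 7.15 ± 0.38 in EV organoids (SD, n = 3 each) in base medium, lower by 2.27 ± 0.35 (adjusted p = 0.000101) and 1.55 ± 0.35 (adjusted p = 0.00448). H2-K2, H2-Q2 and H2-Q7 were lower by 2.51, 2.32 and 2.18 in Selected organoids (adjusted p = 1.83e-05, 6.93e-05 and 7.14e-05). H2-T3, the thymus leukaemia antigen of intestinal epithelium, was well above background on 0 of 3 Selected, 0 of 3 BRAF and 2 of 3 EV arrays in base medium. In ENSW medium it was so on 1 EV array and on 0 Selected and 0 BRAF arrays. H2-T3 thus passed the filter on dim probes through EV arrays alone. It is counted among the falls above, but its test is no separate support. No size is given, since not every EV array in base medium was well above background. In EV organoids 9 of the 13 rose in base medium (23.5% of all genes), and in Selected minus EV organoids 8 had a lower response (10.5%). Several of these genes share long stretches with H2-K1 and H2-D1, so their probes may not count separate transcripts, which was not tested.

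Peptide trimming and general loading were read from 5 genes. Of Calr, Canx, Pdia3, Tapbpl and Erap1, 1 fell in Selected organoids (Erap1, the aminopeptidase that trims peptides in the endoplasmic reticulum, by 2.13 ± 0.40, adjusted p = 0.000550), a share close to the 23.2% of all genes, and 2 fell in BRAF organoids in base medium (Tapbpl by 1.61 ± 0.41, adjusted p = 0.00957, and Erap1 by 1.43 ± 0.40, adjusted p = 0.0154), where 13.2% of all genes fell. In ENSW medium Erap1 fell by 1.71 ± 0.40 (adjusted p = 0.0142) and the chaperone Calr by 0.59 ± 0.18 (adjusted p = 0.0486) in Selected organoids. There 5.12% of all genes fell in Selected organoids, and 0 of the 5 genes passed the test in BRAF organoids. The Erap1 probe was well above background on 1 of 3 Selected arrays in base medium and on 2 of 3 in ENSW medium. The size of its fall in Selected organoids is therefore uncertain.

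Among 16 regulators of class I transcription, 11 fell and 1 rose in Selected organoids against EV in base medium, where 23.2% of all genes fell and 25% rose. In BRAF organoids 4 of them fell (13.2% of all genes), and in EV organoids 9 rose in base against ENSW medium (23.5%). Irf1, an interferon-induced activator of class I and immunoproteasome genes, had mean levels of 1.52 ± 0.62 in Selected, 2.73 ± 0.86 in BRAF and 4.91 ± 0.23 in EV organoids in base medium (SD, n = 3 each). It was lower by 3.40 ± 0.40 (adjusted p = 1.22e-05) and 2.18 ± 0.40 (adjusted p = 0.00117), and in ENSW medium it fell by 1.49 ± 0.40 (adjusted p = 0.0256) in Selected organoids. The interferon gamma receptor chain Ifngr2 fell by 1.80 ± 0.25 (adjusted p = 4.5e-05) in Selected and 1.21 ± 0.25 (adjusted p = 0.00265) in BRAF organoids in base medium. Rfx5, a subunit of the complex that binds the class I promoters, was the 1 rise (1.01 ± 0.40, adjusted p = 0.0493). Of the inducing ligands, Ifng was well above background on 0 of 18 arrays and Ifnb1 on 2, and Tnf did not pass the test in any of the 9 comparisons between pairs of groups, with differences between -0.25 and 0.15. Ifnl3 rose by 0.69 ± 0.16 (adjusted p = 0.00277) in EV organoids in base against ENSW medium, and by 0.63 ± 0.16 (adjusted p = 0.0305) in BRAF against EV organoids in ENSW medium, where 4.92% of all genes rose.

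The genes whose levels were most like the mean of the 10 (each centred over 18 arrays) were Aldoart2 (r = 0.947), Oas1g (0.945), Parp10 (0.923), Oas1a (0.922), Trim56 (0.922) and Nmi (0.919), the 6 highest among 16085 genes with a symbol. The mean of the 10 gives most weight to Psmb8, which varied most, and the 18 arrays are pairs from 9 cultures.

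Markers of epithelium and of other cells were read on the same arrays. All 6 epithelial markers were well above background on every array, and their summed level lay between 358 and 1050 in Selected, 873 and 1830 in BRAF and 1150 and 1400 in EV organoids in base medium, in linear units of the 75th percentile. Epcam fell by 1.86 ± 0.30 (adjusted p = 0.000163) in Selected and 1.07 ± 0.30 (adjusted p = 0.0158) in BRAF organoids against EV in base medium, Vil1 by 2.23 ± 0.40 (adjusted p = 0.000367) and 1.16 ± 0.40 (adjusted p = 0.0403), and in EV organoids they rose by 1.12 ± 0.30 (adjusted p = 0.00831) and 1.54 ± 0.40 (adjusted p = 0.00668) in base medium. Over the 6 markers 4 fell in Selected organoids and these 2 in BRAF organoids (23.2% and 13.2% of all genes), and in EV organoids 3 of the 6 rose in base against ENSW medium (23.5% of all genes). Krt18 was higher than in EV by 0.21 in Selected and 0.56 in BRAF organoids and did not pass the test. The part of these markers in the class I differences was not tested. Of 13 immune markers 8 or 9 were above background per array, but Cd3g, Itgax and Lyz2 were so on 0 of 18, and Ptprc, the pan-leukocyte gene, differed from EV by -0.41 ± 0.28 (adjusted p = 0.246) in Selected and -0.32 ± 0.28 (adjusted p = 0.414) in BRAF organoids in base medium. The summed immune level lay between 26.2 and 28.9 in Selected, 30.3 and 44.4 in BRAF and 44.6 and 67.5 in EV organoids in base medium. Most of that sum was Itgam, which fell by 1.39 ± 0.21 (adjusted p = 9.41e-05) in Selected and 0.80 ± 0.21 (adjusted p = 0.0112) in BRAF organoids. Without Itgam the sum lay between 9.14 and 10.8 in Selected, 9.89 and 15.2 in BRAF and 6.78 and 8.53 in EV organoids. Of the 9 immune markers that could be tested, Itgam was the 1 that fell, Cd4 rose in Selected organoids by 0.71 ± 0.20 (adjusted p = 0.00791) and 2 rose in BRAF organoids (Cd4 by 0.90 and Cd79a by 0.54), where 25% and 17.8% of all genes rose, with medians of 0.08 and 0.07. In ENSW medium Cd4, Cd79a and Csf1r rose in both types, where 8.68% and 4.92% of all genes rose. Of 9 fibroblast and endothelial markers 3 or 4 were above background per array, Col1a1, Pdgfra, Dcn and Cdh5 on 0 of 18, and their summed level lay between 3.92 and 4.42 in Selected, 4.40 and 6.18 in BRAF and 3.17 and 3.57 in EV organoids in base medium. Of the 4 that could be tested, 1 rose and 1 fell in each mutant type there. The shares of all genes that rose and fell were 25% and 23.2% in Selected organoids, and 17.8% and 13.2% in BRAF organoids. The part of these markers in the class I differences was likewise not tested.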

How the data were processed

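RNA was measured on 20 single-colour arrays, 18 of them tested. The deposited scanner output held spot intensity, background-subtracted in its processed signal per the file headers (Feature Extraction 10.7.3.1, mm9 coordinates). A table of log2 values, also deposited, served as an alternative, and the submitters' processing notes name limma. Control spots (1377) and 98 to 158 outlier spots per array were left out, and 0 of 43020 other spots were saturated. The log2 processed signal minus the 75th percentile of the array was averaged over spots of a probe. Kept were 26827 probes that 3 or more of the 18 arrays had well above background, and each gene was read from its brightest kept probe (21424 genes, 16085 with a symbol). Names were updated through RefSeq accessions for 26581 of 39429 probes.

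Means of 6 groups were fitted with limma 3.58.1 (R 4.3.3, 12 residual degrees of freedom) in 12 contrasts, 9 between pairs of groups and 3 of responses. Both arrays of a culture entered this fit as independent, although the consensus correlation within cultures was 0.526. A gene passed the test at an adjusted p under 0.05 (Benjamini-Hochberg over the genes of its contrast), and p-values measure the spread between lines. The fit was tested on simulated data with independent noise on every array, for BRAF against EV organoids in base medium. That simulation cannot check the effect of the correlation within cultures. Line numbers pair the cultures, since the labels give the same line in each type. Deviations from group means correlated at 0.42 to 0.87 between the media of a culture (9 pairs). They correlated at -0.08 to 0.37 between types of the same number (36 pairs) and at -0.58 to 0.17 otherwise (90 pairs). The last set includes different lines of the same type. Their deviations are centred on a mean of 3 lines, which pushes these correlations below 0, so the ranges do not test the pairing. Alternatives were 37 settings of normalization, background, filter, probe choice, block (line, culture, slide) and left-out arrays. All 10 genes were to be named, with H2-T23, Irf1 and Psmb5 to Psmb7, up to 4 genes of each other list and contrast by adjusted p, and the 6 genes most like the mean. Some genes of these lists are counted but not reported singly here. The genes and lists were chosen with earlier results of these data known. Matches in promoters, tables and plots were made with Python 3.11.15, numpy 2.4.6, pandas 2.3.3, Biopython 1.88 and matplotlib 3.10.9.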

Additional observations from a re-analysis of the deposited data

Results flagged for a closer look

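The response to base medium differed between Selected and EV organoids, by the test of the difference itself, for genes that responded in EV organoids. The values, Selected minus EV on the log2 scale, were -1.90 for H2-K1, -1.49 for H2-D1 and -1.87 for Tap2 among the 10 genes. They were -1.65 for H2-K2, -1.91 for H2-Q2, -1.53 for H2-Q7, -1.98 for H2-T23 and -2.20 for H2-Q10 among non-classical genes. The standard proteasome subunits went the other way, with 1.00 for Psmb6, 0.83 for Psmb7 and 0.92 for Psmb5. Among regulators the values were -1.90 for Irf1, -1.77 for Irf2 and -1.30 for Ifnar1.

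The 2 wild-type arrays entered no test, with 1 array per medium, on the slide that held EV line 1. In base medium the wild-type array lay above all 3 EV arrays for 9 of the 10 genes, Psmb8 excepted, as it did for 24.1% of all genes: 7.43 for H2-K1, 7.11 for H2-D1, 5.14 for B2m, -0.48 for Tap1, 3.80 for Tap2, 4.19 for Tapbp, 2.23 for Psmb9, 5.58 for Psmb10 and -3.34 for Nlrc5. In ENSW medium it lay above them for Nlrc5 (-4.98), as for 21.4% of all genes. All 10 genes were higher in base than in ENSW medium in wild-type organoids, by a median of 1.91, as were 62.1% of all genes. The difference from EV organoids was not tested.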

How the results depend on the processing

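No result changed sign while it passed the test. The number of the 10 genes that passed was 3 in place of 1 for BRAF against EV in ENSW medium with the line as a block, and 8 in place of 5 in base medium with the culture as a random block. For Selected against BRAF in base medium it was 0 in place of 2 with slide as a fixed block. For base against ENSW medium in BRAF organoids it was 3 in place of 0 with the culture as a random block and 1 with slide as a random or fixed block. For the response of Selected minus EV it was 6 in place of 3 with the culture block and 5 with slide fixed. Calls over all genes moved with the processing too. They ran from 1013 to 1923 for BRAF against EV in ENSW medium (main 1356) and from 5241 to 7496 in base medium (6642). For Selected against BRAF in base medium they ran from 1334 to 2761 (2100). For the response of Selected minus EV they ran from 4593 to 9255 (5194). The cause was not tested. The line as a block changed no other count of the 10 genes by over 1.5 times.

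Leaving out 1 array or 1 culture, the numbers passing were 1 to 2 for Selected against EV in ENSW medium (2 without the base array of BRAF line 1), 7 to 8 in base medium (7 without that of EV line 1), 1 to 2 for BRAF against EV in ENSW medium (2 without Selected line 2), 3 to 8 in base medium (3 without the base array of EV line 1, 8 without that of BRAF line 2) and 0 to 3 for Selected against BRAF in base medium (0 without BRAF line 2, 3 without the base array of BRAF line 1). They were 1 to 6 for base against ENSW medium in EV organoids (1 without EV line 3), 0 to 3 in BRAF organoids (3 without the base array of BRAF line 1), and 1 to 4 for the response of Selected minus EV (1 without the base array of EV line 1, 4 without the ENSW array of EV line 1). The other 4 counts stayed at 0. H2-K1 in BRAF against EV organoids in base medium just missed the threshold without both arrays of EV line 3 (log2 difference -1.11).

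Over all genes, the culture block gave 4089 calls in place of 354 for the medium in BRAF organoids, and 0 were left without BRAF line 2. Leave-outs gave 938 to 3287 calls for Selected against EV in ENSW medium (main 2956), 297 to 1605 for BRAF against EV (1356) and 840 to 3360 for Selected against BRAF in base medium (2100). In base medium they gave 8241 to 10528 for Selected against EV (10326) and 3907 to 6894 for BRAF against EV (6642). Base against ENSW medium gave 5145 to 9392 in EV organoids (9048) and 0 to 1706 in BRAF organoids (354). The response of Selected minus EV gave 2942 to 5707 (5194). The choice of scaling moved the median of all genes by over 0.1 in EV organoids between media (0.19, against 0.09 with quantile normalization and 0.05 with the authors' values) and, with normexp, in BRAF against EV in ENSW medium (0.22 against 0.07). Psmb8 and Nlrc5 lay close to background, which limits their differences.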
